A study of Drosophila melanogaster with 6 samples.

Results

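The genes described here are 10 regulators of flight muscle fate and splicing, which are extradenticle (exd), homothorax (hth), spalt major (salm), spalt-related (salr), vestigial (vg), erect wing (ewg), Mef2, charlatan (chn), bruno 1 (bru1) and muscleblind (mbl). They were chosen by name for their roles in fibrillar flight muscle, with earlier results of these data known, and they are 10 of the 17494 genes in the count table. RNA was taken from hand-dissected indirect flight muscles, labelled dorsolongitudinal, of adult Drosophila melanogaster females aged 2 days. There were 3 samples of Mef2-GAL4 crossed to an M1BP RNAi line (Mef2>M1BP RNAi, line #1, the weaker of the lines of the study) and 3 samples of Mef2-GAL4 crossed to w1888 (Mef2>WT), each pooled from 30 flies. Both groups therefore carried the Mef2-GAL4 driver, which uses regulatory DNA of Mef2 and is active in all muscles from development onwards, so the knockdown was neither limited to flight muscle nor to the adult. M1BP is a zinc finger transcription factor that binds a core promoter motif, and the comparison asks how the adult muscle transcriptome differs when it is depleted.

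Indirect flight muscles are fibrillar, which means that their myofibrils stay separate and contract by stretch activation, whereas leg and jump muscles are tubular. The homeodomain proteins Exd and Hth act together early in the thorax, and the zinc finger protein Salm, which they help to switch on, is the selector that turns a tubular programme into a fibrillar one. Vg with its DNA-binding partner Scalloped, and Ewg, a relative of vertebrate NRF1, act in the flight muscle precursors, and Mef2 is the MADS-box activator of muscle genes in general. Bru1, a CELF family protein also known as Arrest, makes the splice choices particular to flight muscle downstream of Salm, and Muscleblind controls the splicing of sarcomere transcripts in many muscles. Chn is a zinc finger repressor known mostly from sensory organ formation. The counts are of reads per gene, so neither splice choices nor protein were measured.

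The libraries held 37908823 to 64768186 counts upon M1BP RNAi and 45132859 to 64871987 counts in WT, but genes of mtDNA took 54.0% to 59.4% and 71.5% to 76.3% of them. This left 17284968 to 27158157 counts on nuclear genes upon M1BP RNAi and 10700748 to 18518305 in WT. Counts were therefore scaled with edgeR's TMM factors, which correct for composition, and normalised counts below are counts scaled to the mean effective library of the 6 samples. The target of the RNAi, M1BP, had 49.5, 50.1 and 51.95 normalised counts upon M1BP RNAi and 149, 123 and 119 in WT, a log2 fold change of −1.36 (SE 0.16, adjusted p = 3.36e-04). This p and those below are from the quasi-likelihood test of edgeR and were adjusted by the Benjamini-Hochberg method over the 9276 genes with enough counts to be tested. They measure the spread between these 3 pools per group. Of the defining genes of flight muscle, Act88F, the flight muscle actin, averaged 338737 ± 93258 normalised counts upon M1BP RNAi and 95591 ± 13628 in WT (SD, n = 3 each). Flightin (fln) averaged 176287 ± 43425 and 118004 ± 5823, and the stretch-activation troponin C TpnC4 averaged 111895 ± 8063 and 131121 ± 14938, so the labelled tissue was present in both groups.

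Under TMM scaling, markers of other cells moved with the knockdown too, and this stands beside every result below. All 5 neuron markers, with elav and Syt1 among them, were lower upon M1BP RNAi (adjusted p up to 0.05), and so were all 3 glia markers, 4 of 6 fat body markers, 4 of 5 blood cell markers, both trachea markers and 2 of 3 epidermis and tendon markers. Of all genes tested, 27.0% were lower at that adjusted p. The 2 fat body markers and the 1 blood cell marker that had too few counts to test were Fbp1, Fbp2 and He. The summed normalised counts of the neuron list were 1818 to 2308 upon M1BP RNAi and 3543 to 4686 in WT, and those of the fat body list, which is mostly yolk protein RNA, were 12214 to 25618 and 48629 to 85787. For glia the sums were 285 to 330.5 upon M1BP RNAi and 613 to 644 in WT, and for blood cells they were 1448 to 2048 and 2697 to 3341. Trachea markers summed to 235 to 371 upon M1BP RNAi and 585 to 611 in WT, and epidermis and tendon markers to 158 to 228 and 277 to 396. Fewer cells of a type and less RNA per cell cannot be told apart in such bulk samples. Several of the regulators, among them hth, exd, mbl and chn, are also used in neurons, and the part of other cells in their values was not tested.

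All 10 regulators were expressed above the detection floor, with 57 to 14647 raw counts in a library, and all 10 passed the filter on low counts. By the stricter rule used here, the study's own, a gene needs an adjusted p no higher than 0.001 and a change of 1.5-fold or more. By it bru1 was higher upon M1BP RNAi and salm and Mef2 were lower. Over all genes tested, 11.0% were higher and 6.58% lower by this rule. By the looser rule, an adjusted p up to 0.05 with no minimum fold, 1 regulator was higher and 7 were lower, where 29.1% of all genes were higher and 27.0% lower. All 3 M1BP RNAi samples lay above all 3 WT samples for 1 regulator and below them for 8, where the shares over all genes were 33.1% and 31.1%. The median log2 fold change of the 10 was −0.72, and that of all genes tested was 0.02.

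**Figure D1:**
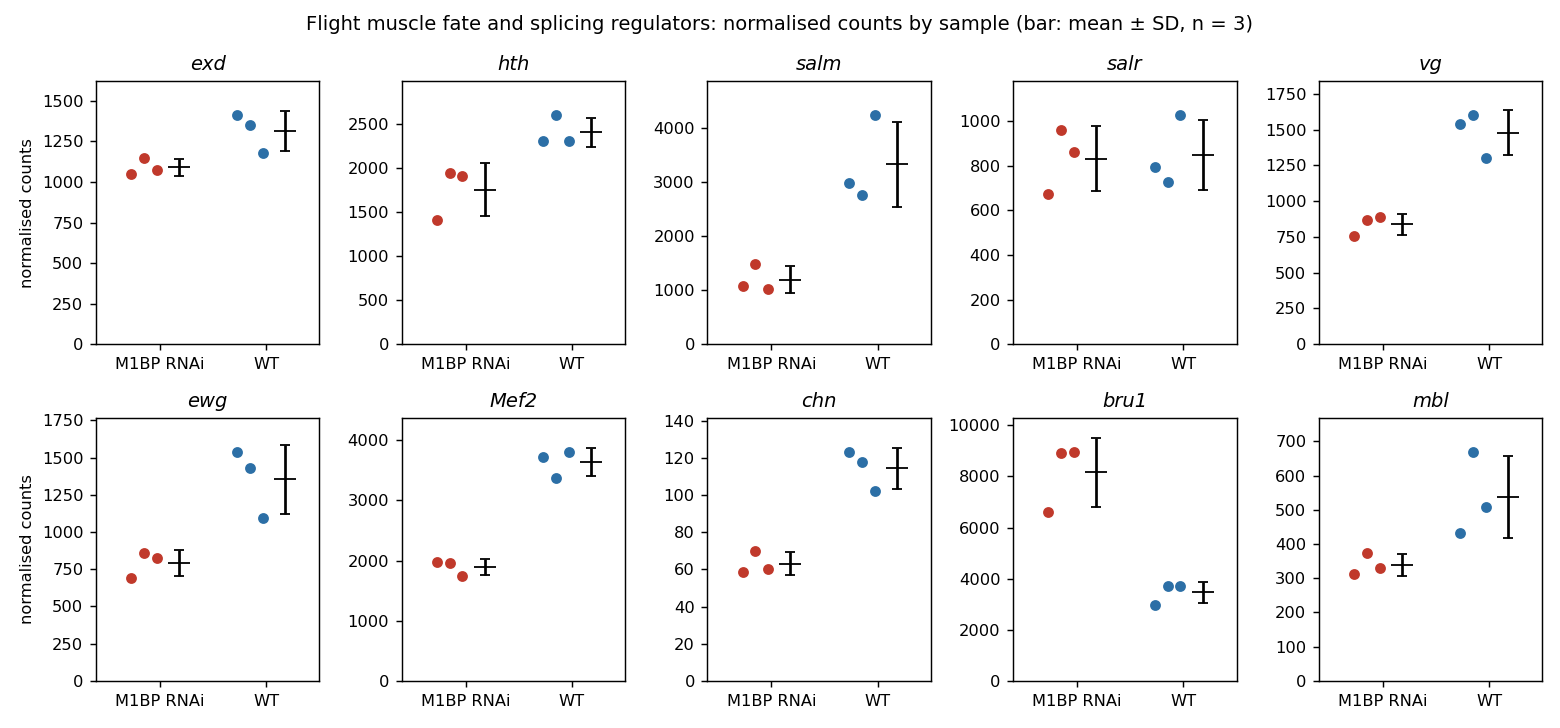
Normalised counts of each of the 10 regulators (vertical axes, linear and starting at 0) in each of the 3 M1BP RNAi samples (red, left) and 3 WT samples (blue, right), with the mean and SD of each group beside its points. The M1BP RNAi samples of bru1 sit between 6596 and 8953, above WT at 2978 to 3714, those of salm between 1026 and 1486, below WT at 2772 to 4243, and the groups of salr overlap.

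The choice of scaling bears on all of these values. When libraries were scaled by their total count, mtDNA included, the median log2 fold change of all genes tested was 0.77, a shift of 0.75, and of all genes 27.8% were then higher and 1.48% lower by the stricter rule and 56.0% higher and 5.99% lower by the looser rule, against 3 regulators higher and 1 lower by the looser rule. Under that scaling M1BP was at −0.61 and bru1 was higher with a log2 fold change of 1.97 (edgeR adjusted p = 1.21e-04) and salm lower with −0.76 (edgeR adjusted p = 0.0271). Mef2, chn, vg and ewg were at −0.20, −0.11, −0.06 and −0.01, which all missed an adjusted p of 0.05. The values of salr, exd, hth and mbl turned to 0.70, 0.49, 0.29 and 0.07. With these, salr (edgeR adjusted p = 0.0220) and exd (edgeR adjusted p = 0.00812) were called higher by the looser rule, while hth and mbl were not. The marker lists had medians of −0.16 for neurons, −0.27 for glia, −0.87 for fat body and 0.16 for blood cells. For trachea the median was −0.34, and for epidermis and tendon −0.04. By the looser rule 3 fat body markers were lower under this scaling, and no marker of the other lists of non-muscle cells was called. The scaling shifted nearly all genes by a similar amount, so the side of the all-gene median on which a gene lies was largely kept by construction. bru1 lay above that median and the other 9 below it. Of these, salr, at −0.03 (SE 0.18) under TMM where the median was 0.02, cannot be placed on either side.

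**Figure D2:**
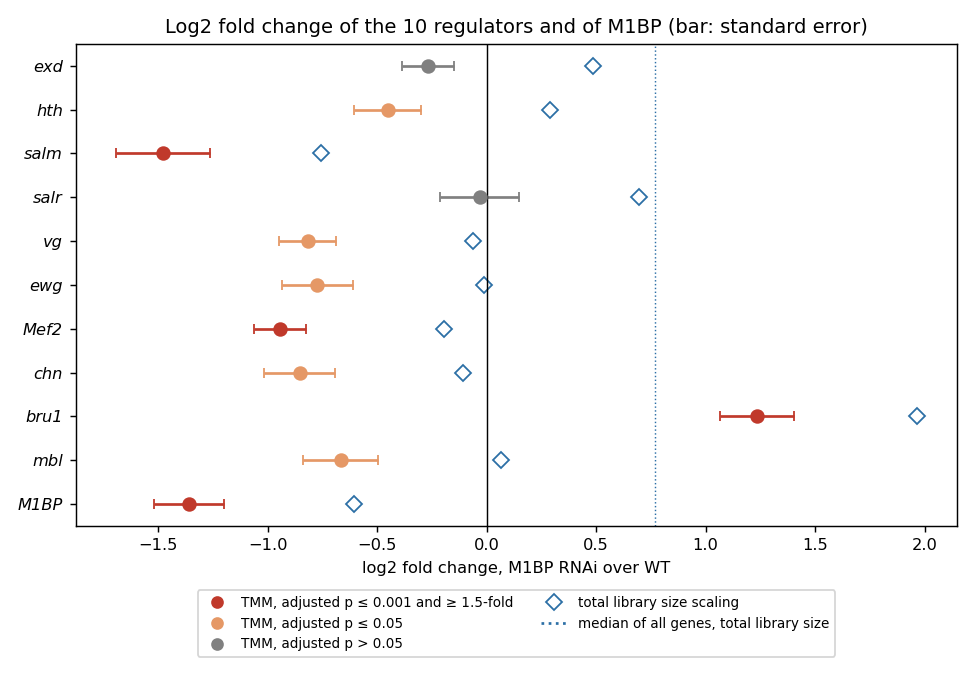
Log2 fold change (horizontal axis, M1BP RNAi over WT) of the 10 regulators and M1BP, with circles for TMM scaling and bars for the standard error, coloured by the rule passed, and open diamonds for scaling by total library size. bru1 is at 1.24 and salm at −1.48 under TMM, each diamond lies to the right of its circle, and only the diamond of bru1, at 1.97, lies beyond the dotted median of all genes at 0.77.

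Of the homeodomain pair, exd showed the smaller difference. It lies on chromosome X from 15992468 to 15996509 (plus strand, release 6 of the genome, dm6, as all coordinates here) and is the shortest of the 10 at 4042 bp. Its product is a cofactor that binds DNA together with Hox and Hth proteins. It had 1046, 1149.7 and 1076 normalised counts upon M1BP RNAi and 1410.4, 1353 and 1177 in WT. The highest M1BP RNAi sample, replicate 2, came close to the lowest WT sample, replicate 3, without reaching it. Its log2 fold change of −0.27 (SE 0.12) missed the looser threshold in edgeR's test (adjusted p = 0.0887), and of the fits with a sample left out only that without WT replicate 3 passed it (−0.34, adjusted p = 0.0402).

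Its partner hth, on chromosome 3R from 10507561 to 10639568 (minus strand), encodes the protein that brings Exd into the nucleus. It had 1409, 1951 and 1913 normalised counts upon M1BP RNAi and 2312, 2600.3 and 2305 in WT. M1BP RNAi replicate 1 was the low sample, and the groups did not overlap. The log2 fold change was −0.45 (SE 0.15, edgeR adjusted p = 0.0370), between −0.53 and −0.31 as each sample was left out in turn, with an adjusted p of at most 0.05 in 2 of those 6 fits (without M1BP RNAi replicate 2 and without WT replicate 3). An antisense RNA, asRNA:CR44018, shares 207 bp or 1.75% of the exons of hth, but it had only 2 to 8 raw counts in M1BP RNAi libraries and 5 to 7 in WT libraries.

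Of the spalt genes, salm was lower upon M1BP RNAi and salr was not called. salm, on the minus strand of 2L from 11434311 to 11445614, had 1078, 1486 and 1026 normalised counts upon M1BP RNAi and 2982, 2772 and 4243 in WT. WT replicate 3 was far above the other WT samples, and even the highest M1BP RNAi sample was well below the lowest WT one. On average salm was at 1197 ± 252 upon M1BP RNAi and 3332 ± 796 in WT (SD, n = 3 each), a log2 fold change of −1.48 (SE 0.22, edgeR adjusted p = 9.34e-04) or 2.79-fold lower. Without WT replicate 3 it was −1.26 (edgeR adjusted p = 0.00148). In all 6 fits with a sample left out salm had an edgeR adjusted p between 0.00148 and 0.00503, above the stricter threshold.

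salr encodes the second spalt zinc finger protein and lies on the plus strand of 2L from 11358873 to 11373636. Only 60674 bp separate it from salm, with 1 annotated gene between them, lncRNA:CR43681, which had 0 counts in all 6 libraries. salr had 673, 958 and 861 normalised counts upon M1BP RNAi and 794, 727 and 1025 in WT. Each group spanned nearly the same range. Its log2 fold change was −0.03 (SE 0.18, edgeR adjusted p = 0.893), and it ran from −0.14 to 0.13 as samples were left out.

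The ratio of the 2 spalt genes within a library does not depend on the scaling of libraries. There were 1.60, 1.55 and 1.19 salm counts per salr count upon M1BP RNAi and 3.75, 3.81 and 4.14 in WT. The groups were far apart compared with their spread (1.45 ± 0.224 upon M1BP RNAi and 3.90 ± 0.208 in WT, SD, n = 3 each), and the ratio was 2.72-fold lower upon M1BP RNAi. This is a ratio of reads and not of transcripts per length, and its exact two-sided permutation p of 0.1 is the smallest that 3 samples against 3 can give. For hth against exd the same ratio averaged 1.61 ± 0.229 and 1.84 ± 0.175, and the groups overlapped (exact permutation p = 0.3). The ratios were chosen after the values were seen.

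The vestigial gene vg, on 2R from 12884632 to 12899385 (plus strand), encodes a coactivator that has no DNA-binding domain of its own. It had 754, 869 and 892 normalised counts upon M1BP RNAi and 1539, 1599 and 1300.2 in WT. All M1BP RNAi samples were low, and the groups stood well apart. vg was at a log2 fold change of −0.82 (SE 0.13, edgeR adjusted p = 0.00146), which passed the looser rule also with any 1 sample left out (−0.90 to −0.74). Its DNA-binding partner scalloped (sd), a TEAD family protein, averaged 544 ± 20.3 normalised counts upon M1BP RNAi and 1262 ± 209 in WT (SD, n = 3 each), with a log2 fold change of −1.21 (SE 0.15, edgeR adjusted p = 3.62e-04). Within a library there were 1.44, 1.54 and 1.63 vg counts per sd count upon M1BP RNAi and 1.18, 1.10 and 1.26 in WT, so the ratio was higher upon M1BP RNAi in every sample.

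Erect wing, ewg, on chromosome X from 268509 to 279718 (minus strand), had 692, 857 and 826 normalised counts upon M1BP RNAi and 1537, 1429.6 and 1096 in WT. WT replicate 3 was the lowest of its group but still above all M1BP RNAi samples. ewg was lower by the looser rule, at a log2 fold change of −0.77 (SE 0.16, edgeR adjusted p = 0.00477), and −0.90 without WT replicate 3. CG3777 on the opposite strand shares 16 bp of exon with it, or 0.229% of the ewg exons, and its log2 fold change was −0.73 (edgeR adjusted p = 0.0568) with overlapping groups.

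Mef2, on the minus strand of 2R from 9913496 to 9958858, is the activator on which muscle differentiation depends. It had 1980.0, 1953 and 1739 normalised counts upon M1BP RNAi and 3723, 3369 and 3802 in WT. The samples of each group lay close together, and the groups stood well apart. Mef2 averaged 1891 ± 132 and 3631 ± 231 (SD, n = 3 each), a log2 fold change of −0.94 (SE 0.12, edgeR adjusted p = 4.63e-04). With samples left out it stayed between −0.98 and −0.88, with an edgeR adjusted p between 0.00111 and 0.00356, which is above the stricter threshold in all 6 fits. The ratio of Mef2 to ewg counts in a library averaged 2.42 ± 0.397 upon M1BP RNAi and 2.75 ± 0.624 in WT, and these overlapped (exact permutation p = 0.5).

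charlatan, chn, on the plus strand of 2R from 15115236 to 15144783, was the least abundant of the 10. It had 58.7, 70.1 and 60.5 normalised counts upon M1BP RNAi and 123, 118 and 102 in WT, from 57 to 108 raw counts in a library. The groups did not overlap despite the low counts. Its log2 fold change was −0.85 (SE 0.16, edgeR adjusted p = 0.00310), and −0.93 to −0.78 with samples left out.

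The only regulator that was higher upon M1BP RNAi was bru1. It extends over 138435 bp of the plus strand of 2L, from 12175004 to 12313438, with 7791 bp of exon and 11 annotated transcripts from 6 start positions. It had 6596, 8919.8 and 8953 normalised counts upon M1BP RNAi and 2978, 3698 and 3714 in WT. Replicate 1 was the lowest of each group, and the lowest M1BP RNAi sample was well above the highest WT sample. The averages were 8156 ± 1351 upon M1BP RNAi and 3464 ± 420.4 in WT (SD, n = 3 each), a log2 fold change of 1.24 (SE 0.17, edgeR adjusted p = 6.43e-04) or 2.35-fold higher. With samples left out it was between 1.15 and 1.37, with an adjusted p of at most 0.001 only without M1BP RNAi replicate 1 (4.32e-04) and 0.00353 at most. bru1 made up 45.2%, 48.0% and 50.7% of the summed counts of the 10 regulators upon M1BP RNAi and 16.7%, 20.2% and 19.3% in WT, while salm made up 7.38%, 7.99% and 5.80%, against 16.7%, 15.1% and 22.0% in WT. The summed counts of the 10 were a similar share of nuclear counts, 0.0812% to 0.107% upon M1BP RNAi and 0.0974% to 0.111% in WT.

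Bru1 also acts in the ovary, so germ line RNA was examined in the same libraries. M1BP RNAi replicate 1 had 123 counts of oskar (osk), 24 of vasa (vas) and 16 of nanos (nos), while replicates 2 and 3 had 0 and 3 counts of osk, 0 and 3 of vas and none of nos. WT libraries had 0 counts of osk, 2 to 6 of vas and at most 1 of nos. Without M1BP RNAi replicate 1 the log2 fold change of bru1 was 1.37.

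Another gene, CG31759 (FBgn0051759), lies inside bru1 on the same strand, from 12207709 to 12210110 on 2L. It begins 32705 bp from the first bru1 start, with 5 of the 11 bru1 transcripts starting before it and 6 after it, and shares no exon with bru1. It had 183, 246 and 407 raw counts in M1BP RNAi libraries and 11, 26 and 45 in WT libraries. All M1BP RNAi samples were several times above all WT samples, at 228 ± 34.1 and 32.0 ± 12.1 normalised counts (SD, n = 3 each). The log2 fold change was 2.78 (SE 0.27, edgeR adjusted p = 1.35e-04), between 2.57 and 3.06 with an adjusted p of at most 8.94e-04 as samples were left out. Reads from CG31759 transcripts and reads from unspliced bru1 transcripts that cross it cannot be told apart in counts per gene. atilla, which lies inside bru1 on the opposite strand, was at −0.24 (edgeR adjusted p = 0.333).

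Muscleblind, mbl, the longest of the 10 with 162828 bp on 2R from 17216549 to 17379376 (plus strand), had 311, 375 and 329 normalised counts upon M1BP RNAi and 433, 669 and 509 in WT. WT replicate 2 was well above the other WT samples, and the groups did not overlap. The log2 fold change was −0.67 (SE 0.17, edgeR adjusted p = 0.0123), and −0.47 without WT replicate 2 (edgeR adjusted p = 0.0317). Its 8 annotated inner genes had 0 counts in all libraries.

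bru1 and mbl thus moved apart. There were 21.2, 23.8 and 27.2 bru1 counts per mbl count upon M1BP RNAi and 6.88, 5.53 and 7.30 in WT, 3.67-fold more upon M1BP RNAi. The ratio to salm moved further, with 6.12, 6.002 and 8.73 bru1 counts per salm count upon M1BP RNAi and 0.999, 1.33 and 0.875 in WT, 6.50-fold more upon M1BP RNAi. Both ratios separated the groups completely, and 9 of the 11 ratios computed did so. The pairs were picked after the values were seen, and most of those that separated have bru1 as numerator, so they are not independent results. Among single genes tested, 33.1% were higher and 31.1% lower without overlap, and no such share was computed for ratios.

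**Figure D3:**
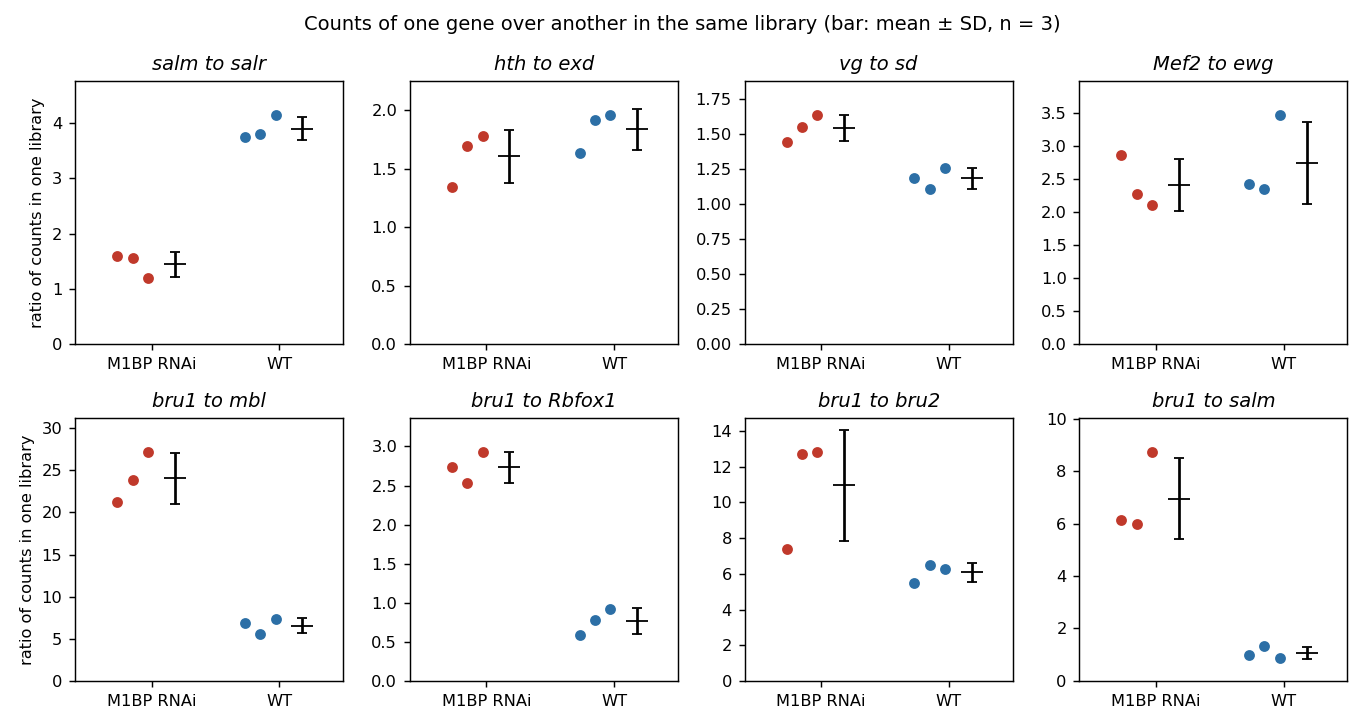
Counts of one gene divided by counts of another in the same library (vertical axes, starting at 0) for 8 of the 11 pairs, with M1BP RNAi samples in red on the left, WT samples in blue on the right and the mean and SD beside them. salm to salr is 1.19 to 1.60 upon M1BP RNAi and 3.75 to 4.14 in WT, bru1 to salm is 6.002 to 8.73 and 0.875 to 1.33, and hth to exd and Mef2 to ewg overlap.

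The paralogs of bru1 showed smaller differences. bru2, which lies 30780 bp beyond the end of bru1 on the same strand, averaged 765 ± 112 normalised counts upon M1BP RNAi and 569 ± 23.8 in WT (SD, n = 3 each), a log2 fold change of 0.43 (edgeR adjusted p = 0.0251). bru3 was lower at −0.50 (edgeR adjusted p = 0.0187), and the adjusted p passed 0.05 for bru2 without WT replicate 1 or 2 (at most 0.0735) and for bru3 without M1BP RNAi replicate 2 or WT replicate 2 (at most 0.0632). The number of bru1 counts per bru2 count was 7.38, 12.7 and 12.8 upon M1BP RNAi and 5.47, 6.49 and 6.27 in WT, and that per bru3 count was 77.1 to 96.8 and 24.5 to 28.5.

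Among 20 other RNA-binding proteins that act in splicing or muscle RNA control, 8 were higher and 6 lower by the looser rule, with a median log2 fold change of 0.21. Over all genes tested, 29.1% were higher and 27.0% lower by that rule. By the stricter rule, which called 11.0% of all genes higher, 2 of the 20 were higher, which were the hnRNP genes Hrb98DE at 1.01 (SE 0.13, edgeR adjusted p = 5.26e-04) and Hrb87F at 0.85 (SE 0.11, edgeR adjusted p = 5.68e-04). With a sample left out, the first kept that call only without WT replicate 3 and the second only without M1BP RNAi replicate 1. The SR protein gene x16 was also higher (1.18, edgeR adjusted p = 0.00148). pasilla (ps), a relative of the vertebrate NOVA proteins, was lower at −0.85 (edgeR adjusted p = 0.00150), and the KH domain gene mub was lower at −0.81 (edgeR adjusted p = 0.00230). Rbfox1 and how, splicing regulators of muscle picked after their values were seen, were at −0.62 (edgeR adjusted p = 0.0160, and 0.0580 without WT replicate 1) and −0.65 (edgeR adjusted p = 0.00262). There were 2.74, 2.53 and 2.93 bru1 counts per Rbfox1 count upon M1BP RNAi and 0.587, 0.779 and 0.924 in WT. Under scaling by total library size 18 of these 20 genes lay above 0, with a list median of 0.95 where that of all genes was 0.77. By the looser rule 13 were then higher and 0 lower, where 56.0% of all genes were higher and 5.99% lower. Under this scaling ps and mub were at −0.10 and −0.07, bru3 turned to 0.24, and Rbfox1 and how turned to 0.13 and 0.10.

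Levels of different genes were compared per length, as CPM of the nuclear counts (counts scaled to the nuclear total of each library) per kb of exon. In M1BP RNAi samples the order of the means was bru1 (60.8 ± 12.0), exd (19.1 ± 1.32), vg (14.0 ± 1.74), Mef2 (11.9 ± 0.447), salm (11.3 ± 2.36), salr (8.71 ± 1.72), hth (8.63 ± 1.74), ewg (6.59 ± 0.923), mbl (1.30 ± 0.144) and chn (0.584 ± 0.0624), all as SD with n = 3. In this group bru1 and exd each stood above the next gene in all samples, as did ewg above mbl and mbl above chn, while the ranges of neighbours from vg down to ewg overlapped. In WT the order was salm (31.2 ± 7.30), bru1 (25.6 ± 4.14), vg (24.5 ± 3.22), exd (22.8 ± 2.22), Mef2 (22.6 ± 0.872), hth (11.7 ± 1.38), ewg (11.1 ± 1.87), salr (8.78 ± 1.56), mbl (2.06 ± 0.565) and chn (1.05 ± 0.106). In WT the ranges of Mef2 over hth, salr over mbl and mbl over chn were separate, and those of all other neighbours overlapped. salm was the fifth upon M1BP RNAi and the first in WT, while bru1 was the first upon M1BP RNAi and the second in WT. Against all genes tested, the mean level per length of bru1 was at the 90.5th percentile upon M1BP RNAi and the 84.4th in WT, and that of salm at the 68.7th and the 86.5th.

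Other transcription factors of the flight muscle or its precursors were lower more often than higher. Of 19 such partners 15 had enough counts to be tested (Him, twi, lms and Ubx did not), and 10 were lower by the looser rule, where 27.0% of all genes tested were lower and 29.1% higher, with a median log2 fold change of −0.76, where that of all genes was 0.02. By the stricter rule, which called 6.58% of all genes lower, 1 was lower, sd, and with a sample left out it kept that call only without WT replicate 3. The Hox gene Antennapedia (Antp), which acts in the thorax, was at −1.44 (SE 0.24, edgeR adjusted p = 0.00170), and stripe (sr), an Egr family factor of tendon cells and flight muscle, was at −1.26 (SE 0.29, edgeR adjusted p = 0.00772). Under scaling by total library size 9 of the 15 were below 0, and 2 were called lower and 2 higher by the looser rule, where 5.99% of all genes were lower and 56.0% higher.

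The structural genes that these regulators control did not move as one group. Of 5 fibrillar genes, with a median log2 fold change of 0.17, Act88F was higher at 1.83 (SE 0.22, edgeR adjusted p = 3.82e-04) and fln at 0.58 (edgeR adjusted p = 0.0296, but 0.0525 to 0.0812 without any 1 WT sample), while Fhos, a formin needed for the thickness of flight muscle myofibrils, was lower at −1.41 (SE 0.13, edgeR adjusted p = 1.21e-04). With a sample left out, Act88F kept an adjusted p of at most 0.001 only without M1BP RNAi replicate 1, and Fhos lost it only without M1BP RNAi replicate 3. TpnC4 was at −0.23 (edgeR adjusted p = 0.199), and under scaling by total library size it turned to 0.53. Of 7 genes used mostly in tubular or larval muscle, with a median of 0.47, TpnC25D alone was called by the looser rule. It was at 1.34 (edgeR adjusted p = 0.0385), and its groups overlapped. That call held in 2 of the 6 fits with a sample left out, without M1BP RNAi replicate 2 and without WT replicate 3. Over all genes tested, 29.1% were higher and 27.0% lower by the looser rule. Under scaling by total library size 5 of the 7 were higher and 0 lower by it, where 56.0% and 5.99% of all genes were. The summed normalised counts of these 7 genes were 24346, 12883 and 10302 upon M1BP RNAi and 6523, 9726 and 11596 in WT, so replicate 1 of M1BP RNAi stood apart and the groups overlapped.

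Of 11 genes used in all muscles, with a median log2 fold change of 0.47, 7 were higher and 1 lower by the looser rule, where 29.1% of all genes tested were higher and 27.0% lower. The muscle myosin heavy chain Mhc was higher at 1.63 (SE 0.23, edgeR adjusted p = 6.93e-04, and 0.00125 to 0.00403 with a sample left out) and tropomyosin 1 (Tm1) at 0.96 (edgeR adjusted p = 0.00387). The Z-disc gene Zasp66 was lower at −1.52 (SE 0.13, edgeR adjusted p = 6.96e-05), and it kept an adjusted p of at most 8.25e-04 with any sample left out. Whether splice forms of any of these genes changed was not measured here.

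**Figure D4:**
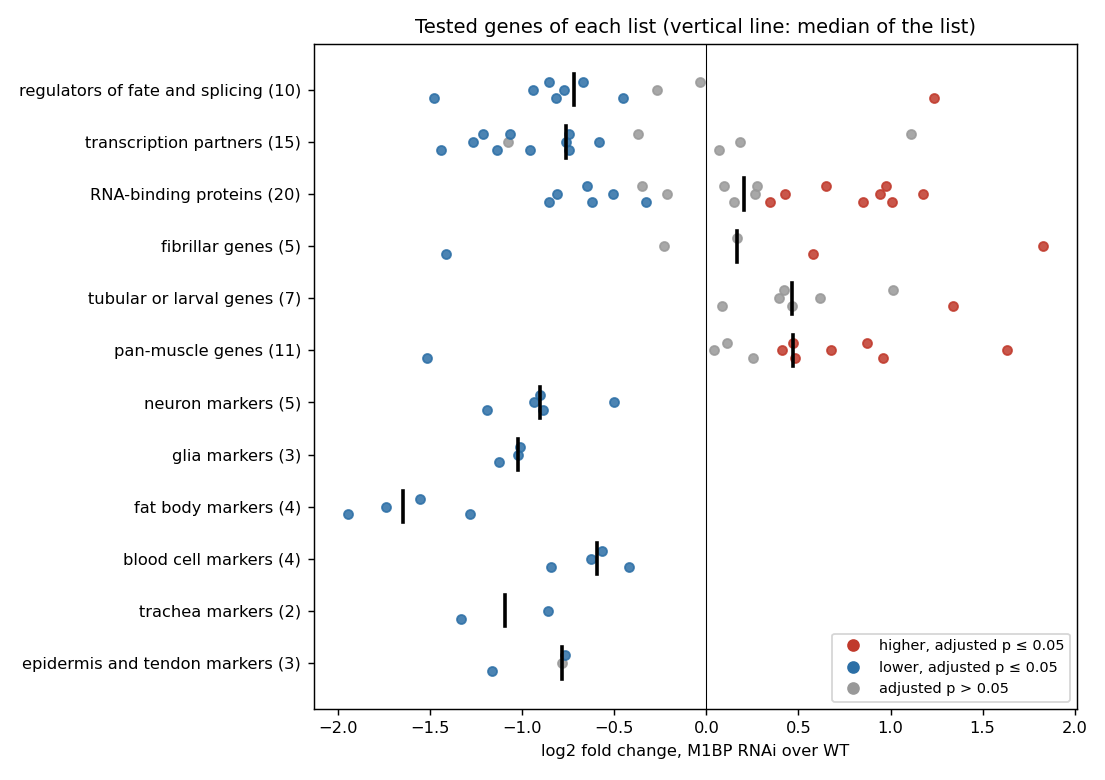
Log2 fold change (horizontal axis, M1BP RNAi over WT, TMM scaling) of each tested gene of the 10 regulators and 11 other lists, with the number tested in brackets, a vertical bar at the median of the list and colours for the looser rule, an adjusted p up to 0.05. The regulators have a median of −0.72 and transcription partners −0.76, RNA-binding proteins are spread around 0.21, and pan-muscle genes have a median of 0.47 with Zasp66 alone at −1.52.

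The regulators are long genes, with a median span of 22156 bp where that of the 9239 nuclear genes tested was 2932 bp. Under TMM scaling, long genes were in general lower upon M1BP RNAi in these libraries. Scaling by total library size raised the all-gene median by 0.75, and medians by span were not computed under it. The median log2 fold change was 0.36 for the 3201 genes of up to 2 kb, 0.15 for genes of 2 to 5 kb, −0.22 for 5 to 10 kb, −0.45 for 10 to 20 kb, −0.62 for 20 to 50 kb and −0.66 for the 284 genes over 50 kb. exd, of 4042 bp, and salm, vg, ewg, Mef2 and chn were below the median of their span class. hth at −0.45 was above it, mbl at −0.67 was close to it, and salr at −0.03 and bru1 at 1.24 were above it. Of the 77 genes over 100 kb, 40 were lower and 6 higher by the looser rule, where 27.0% and 29.1% of all genes tested were. Of the same 77 genes 15 were above 0, and bru1 had the fourth highest log2 fold change. The span classes were chosen after the values were seen, and the part of gene span in the values of the regulators was not tested.

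**Figure D5:**
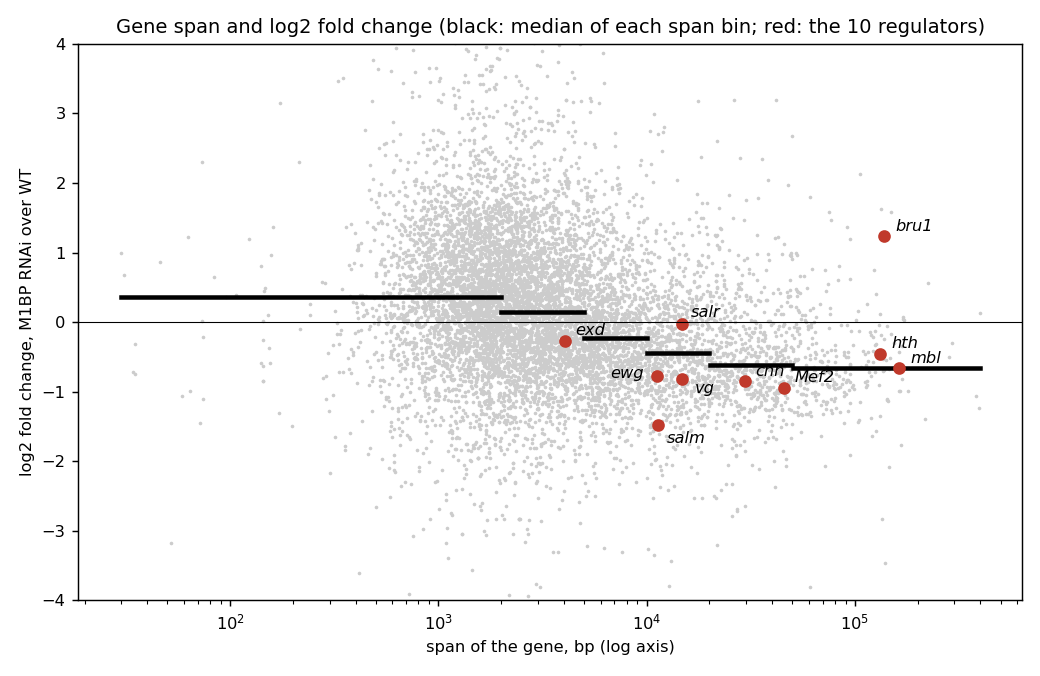
Log2 fold change (vertical axis, M1BP RNAi over WT, TMM scaling) against the span of each tested nuclear gene in bp (horizontal axis, log scale), with the median of each span class in black and the 10 regulators in red. The medians fall to −0.66 over 50 kb, hth and mbl lie near that line and bru1 lies far above it at 1.24, and 97 genes beyond ±4 are outside the plot.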

How the data were processed

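PolyA RNA of the 6 samples was made into stranded libraries, and the authors deposited raw exon counts for 17494 genes, not normalised, with the merged exon length of each gene as another column, and the headers describe uniquely mapped reads. The submitters' processing notes name bcl2fastq 2.17.1.14, Subread, featureCounts, DESeq2 1.3.0 and the build dm6, and whether the counting used strand is not given in the sources used here. A deposited table of the authors' own DESeq2 comparison (fold changes and p-values) was used for gene symbols alone, and no per-sample column was left unused.

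Counts were tested with the quasi-likelihood test of edgeR 4.0.16 in R 4.3.3 with TMM factors and filterByExpr over the 6 samples, without covariates, after the test had been checked on simulated data. Standard errors come from the F statistic, and p-values were adjusted by Benjamini-Hochberg over all 9276 genes tested. Normalised counts are counts per effective library, rescaled to the mean of the 6. A floor of 3 counts corresponded to 1.83 to 3.09 normalised counts upon M1BP RNAi and 2.84 to 5.13 in WT, for counting error only. Gene spans, transcripts and neighbours come from a release 6 annotation that held 17358 of the 17494 genes, 17229 of them (99.3%) with the same start and end, and the start of vg (12884201 there) differs. No 2 libraries of the same group agreed within sampling noise.

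The named genes are the 10 regulators, M1BP, each gene of the other lists past the stricter rule or, where fewer than 4 passed, up to 2 highest and 2 lowest with an adjusted p up to 0.05, the flight muscle markers, the bru1 paralogs and overlapping genes. Cell marker lists are given by counts and sums. The regulators, the lists and the rule were chosen with earlier results of these data known. The alternatives were DESeq2 1.42.0, RLE factors, total library size, nuclear genes only, no filter or at least 10 counts in every sample, a replicate block, and leaving out each sample. Ratios, neighbours and span classes were added after seeing the data.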

Additional observations from a re-analysis of the deposited data

How the results depend on the processing

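Of 429 values of 33 single genes under the alternatives, 345 kept their direction and their side of the threshold, 58 lost the threshold, 13 gained it and 13 changed sign, 10 of these under scaling by total library size. That scaling turned exd to 0.49, hth to 0.29, mbl to 0.066, salr to 0.70, TpnC4 to 0.53, bru3 to 0.24, CG3777 to 0.037, atilla to 0.51, Rbfox1 to 0.13 and how to 0.10. Outside that scaling salr stayed near 0 (−0.14 to 0.13 with a sample left out). It also turned to 0.00212 without a filter on low counts, 0.10 without M1BP RNAi replicate 1 and 0.13 without WT replicate 3. The regulators past the stricter rule numbered 3 of 10 with edgeR and 5 with DESeq2's Wald test (1 higher and 4 lower, vg and ewg added), 1 under total library size (bru1) and 0 to 1 with a sample left out. By the looser rule they were 8, 4 under total library size (3 higher, 1 lower) and 7 to 9 with a sample left out. Calls over all genes also fell by the stricter rule when a sample was left out. They ran from 419 to 842 higher and from 183 to 436 lower, against 1016 and 610 with all 6 samples. By the looser rule they ran from 2296 to 2726 higher and from 1916 to 2411 lower, against 2701 and 2508. DESeq2 called 7 transcription partners, 8 RNA-binding proteins and 5 pan-muscle genes by the stricter rule, against 1, 2 and 2 with edgeR, and 2 tubular or larval genes by the looser rule, against 1. Over all genes tested, DESeq2 called 1653 higher and 1319 lower by the stricter rule, against 1016 and 610 with edgeR. RLE factors, nuclear genes only, no filter and at least 10 counts in every sample each gave 2 partners. Total library size gave 0 partners, 9 RNA-binding proteins, 1 fibrillar gene and 10 pan-muscle genes by the stricter rule, and 4, 13, 5 and 5 for partners, RNA-binding proteins, fibrillar and tubular or larval genes by the looser rule. It called 27.8% of all genes higher and 1.48% lower by the stricter rule, and 56.0% and 5.99% by the looser rule. M1BP was then at −0.61. With a sample left out the stricter counts ran from 0 to 1 for partners and RNA-binding proteins and 0 to 2 for fibrillar genes, with 1 pan-muscle gene each time, and the looser counts from 9 to 11 for partners, 2 to 3 for fibrillar, 0 to 2 for tubular or larval and 5 to 7 for pan-muscle genes. M1BP ran from −1.42 to −1.24 with an adjusted p above 0.001 each time. In the order of levels 8 to 10 regulators kept their place upon M1BP RNAi and 6 to 10 in WT with a sample left out, and 8 in WT when levels were scaled to all counts.

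WT and M1BP RNAi share replicate numbers, but deviations from the group means of same-numbered samples correlated at 0.050, 0.179 and −0.015. Those of differently numbered samples ran from −0.34 to 0.28. No pairing by number was seen, but 3 samples per group cannot exclude it. With the replicate number as a block, 0 regulators, 0 partners, 0 RNA-binding proteins, 0 fibrillar genes and 1 pan-muscle gene passed the stricter rule, 2 fibrillar genes passed the looser one, and M1BP was at −1.35 (adjusted p = 0.00205). In that fit bru1, Mef2 and salm had adjusted p values of 0.00111, 0.00309 and 0.00362, and 544 genes were higher and 246 lower over all genes, against 1016 and 610 without it.

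The cause of these differences was not tested. The depth limits chn most, with 57 to 108 counts in a library.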

Other observations

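The genes next to the regulators were also examined. Of the nearest tested gene on each side of the 10 regulators, 18 sides held a gene other than a regulator, with a median log2 fold change of 0.11 (M1BP RNAi over WT). By edgeR's quasi-likelihood test 7 of these 18 were higher and 3 lower at an adjusted p of at most 0.05, where 29.1% and 27.0% of all genes tested were. eIF5, a translation initiation factor gene on the strand opposite exd at 493 bp, was at 0.98 (edgeR adjusted p = 2.77e-04), with 4568, 4492 and 4411 normalised counts upon M1BP RNAi and 2146, 2284 and 2404 in WT. On the other side of exd, 506 bp away, CG8939 was at 0.90 (edgeR adjusted p = 0.00553). exd thus lay between 2 genes that were higher, while its own log2 fold change of −0.27 missed the looser threshold (edgeR adjusted p = 0.0887). Under scaling by total library size exd was at 0.49 (edgeR adjusted p = 0.00812), below the all-gene median of 0.77.

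AspRS, the aspartyl-tRNA synthetase gene 1463 bp from vg, was at 1.58 (edgeR adjusted p = 1.98e-04), while vg was at −0.82. Rpb12, an RNA polymerase subunit gene 184 bp from chn, was at 0.80 (edgeR adjusted p = 0.00935), while chn was at −0.85. Mef2 had a neighbour on each side within 300 bp, of which Pdrg1 was at 0.55 (edgeR adjusted p = 0.0329) and FBgn0033465, 7 bp away on the opposite strand, was at −0.72 (edgeR adjusted p = 0.00144). Of the 8 neighbours closer than 2000 bp, 5 were above 0 under TMM scaling.

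Among the fat body markers the yolk protein gene Yp2 was at −1.94 (edgeR adjusted p = 0.00402) and the apolipophorin gene apolpp at −1.55 (edgeR adjusted p = 0.00343). The glia gene moody was at −1.01 (edgeR adjusted p = 3.46e-04) and the trachea regulator trh at −1.33 (edgeR adjusted p = 9.04e-04). They were the only markers of non-muscle cells past the stricter rule, by which 6.58% of all genes tested were lower.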
